A study of Mus musculus with 2 samples.

Results

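Gene desert peaks are stretches of accessible DNA that lie far from every protein-coding gene start. They were taken, in each of 2 mouse cerebella, from the larger of the authors' 2 lists of DNase-seq peaks. A member had its midpoint outside every gene body of the GENCODE M21 annotation, noncoding genes included, and more than 100 kb from the nearest start of a protein-coding transcript on mm10. The rule found 14375 of 140127 peaks in replicate 1 and 11166 of 114404 peaks in replicate 2. The cerebella came from 2 male B6CASTF1/J mice aged 36 days, the F1 cross of C57BL/6J with CAST/EiJ, which formed 1 untreated group with 1 library per animal. The labels number them as different males and biological replicates but give both the same donor entry, and the spread between them includes that between library preparations. An exact two-sided permutation over 2 animals cannot give p below 0.5. Values are therefore given per animal without a test across animals, and with values in pairs replicate 1 precedes replicate 2.

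DNase I cuts DNA where nucleosomes are displaced, so a peak marks a site open to regulatory proteins, and a footprint is a short stretch inside it that a bound protein shields from cutting. Gene deserts are long intervals with no protein-coding gene, and in vertebrates some of them hold enhancers that act over great distances on developmental genes at their borders. In the cerebellum most cells are granule neurons, whose basic helix-loop-helix factors Atoh1 and Neurod1 bind E-boxes and which also carry zinc finger factors of the ZIC family and factors of the NFI family. CTCF, a zinc finger protein that blocks the extrusion of chromatin loops, binds many distal sites in all tissues.

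The 7 sequences that follow are shown because each is the best-ranked shared peak of at most 300 bp in its desert, in all deserts or with the E-box, and holds footprints in both animals. The sequences are those of the reference assembly GRCm38.p6 (mm10), plus strand, and the CAST/EiJ alleles of these hybrid mice were not used here. Peaks were ranked by their mean percent rank over both animals. The first 5 come from 5 of the deserts with most peaks: chr5:132892701-132892880 between Auts2 and Castor2, chr1:48276381-48276560 between Slc39a10 and Tmeff2, chr4:131120761-131120960 between Matn1 and Ptpru, chr14:80247681-80247860 between Olfm4 and Pcdh17, and chr8:98861781-98861940 between Got2 and Cdh8. The sixth, chr8:20122141-20122300, had the best rank of all shared desert peaks. In these 6, capitals mark bases inside footprints of both animals. The seventh, chr15:72360681-72360920, is the best-ranked that holds the E-box CAGATGG, and there capitals mark the E-box, read on the minus strand.
Auts2-Castor2 desert: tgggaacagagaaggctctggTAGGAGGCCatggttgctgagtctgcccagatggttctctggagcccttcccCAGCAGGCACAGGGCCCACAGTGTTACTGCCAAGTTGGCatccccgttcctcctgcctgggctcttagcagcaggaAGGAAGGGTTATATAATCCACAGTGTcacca
Slc39a10-Tmeff2 desert: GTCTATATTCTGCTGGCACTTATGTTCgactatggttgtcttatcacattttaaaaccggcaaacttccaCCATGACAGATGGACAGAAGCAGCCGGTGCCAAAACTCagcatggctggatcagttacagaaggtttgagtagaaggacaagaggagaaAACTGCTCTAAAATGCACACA
Matn1-Ptpru desert: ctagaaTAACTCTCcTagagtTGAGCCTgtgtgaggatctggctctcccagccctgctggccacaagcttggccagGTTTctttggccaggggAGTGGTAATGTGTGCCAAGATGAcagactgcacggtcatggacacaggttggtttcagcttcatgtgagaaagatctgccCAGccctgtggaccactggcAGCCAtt
Olfm4-Pcdh17 desert: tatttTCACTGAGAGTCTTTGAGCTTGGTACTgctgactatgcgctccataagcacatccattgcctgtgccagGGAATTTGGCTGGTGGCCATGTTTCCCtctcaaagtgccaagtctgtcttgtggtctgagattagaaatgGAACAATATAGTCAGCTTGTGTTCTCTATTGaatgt
Got2-Cdh8 desert: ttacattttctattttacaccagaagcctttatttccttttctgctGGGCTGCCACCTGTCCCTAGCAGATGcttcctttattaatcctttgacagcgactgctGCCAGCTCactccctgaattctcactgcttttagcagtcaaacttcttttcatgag
Best-ranked desert peak: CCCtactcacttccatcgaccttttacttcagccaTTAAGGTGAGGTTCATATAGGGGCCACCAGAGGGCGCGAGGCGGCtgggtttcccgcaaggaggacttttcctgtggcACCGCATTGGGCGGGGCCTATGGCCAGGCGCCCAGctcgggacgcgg
Best-ranked with the E-box: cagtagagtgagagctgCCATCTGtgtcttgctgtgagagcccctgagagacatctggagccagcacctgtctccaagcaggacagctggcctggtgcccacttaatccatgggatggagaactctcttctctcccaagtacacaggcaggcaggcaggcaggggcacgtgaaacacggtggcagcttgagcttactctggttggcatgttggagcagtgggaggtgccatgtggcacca

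The peaks shown held several of the words searched for, with positions counted from 1 at the left end of the peak. The peak between Slc39a10 and Tmeff2 held CAGATGG at position 77, inside a footprint of both animals. In the peak between Auts2 and Castor2 the same E-box stood at position 49 outside footprints. A ZIC word stood there at position 74 inside a footprint of both animals, and a further one at position 142 outside. The peak between Olfm4 and Pcdh17 held the NFI palindrome at position 81 inside a footprint of both animals. The best-ranked desert peak held a CTCF core at position 59 and the SP/KLF word at position 122, both inside footprints of both animals, and the E-box at position 18 of the seventh peak was inside a footprint of both animals as well. The peak between Matn1 and Ptpru held a ZIC word at position 53 outside footprints, and the peak between Got2 and Cdh8 held none of the 14 words.

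Gene desert sequence made up 765 Mb, or 28.9% of the ungapped genome, and held 10.3% of the peaks of replicate 1 (Wilson 95% interval 10.1 to 10.4%) and 9.76% of those of replicate 2 (9.59 to 9.93%), a mean of 10.01% ± 0.35 (SD, n = 2). Intervals given for shares cover counting error only. Desert sequence held 18.8 and 14.6 peaks per Mb, against 40.7 and 32.6 per Mb in the other intergenic sequence, which lies within 100 kb of a coding start. Among autosomes the density in deserts ran between 16.0 per Mb on chromosome 19 and 28.5 per Mb on chromosome 9 in replicate 1, and between 11.5 and 23.9 per Mb on the same chromosomes in replicate 2. The X chromosome had 11.3 and 7.62 desert peaks per Mb, less than every autosome; the part of copy number, X and Y being single in males, was not tested. The Y chromosome, with 56.3 Mb of desert, had only 40 and 6 peaks.

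As a check of the tissue label, promoters of cell type markers were read for a peak within 1000 bp of a coding start. All 6 granule cell markers, all 4 Purkinje cell markers and all 4 astrocyte markers had one in both animals. Of the 4 oligodendrocyte markers 3 did, the exception being Sox10, and of the 4 microglia markers only Irf8 did. None of the 3 liver markers had a peak. Among all protein-coding genes 62.9% had such a peak in both animals, so the count of oligodendrocyte markers is near that share. Some marker peaks were low. Aqp4 had 0.423 and 0.375 and Car8 0.640 and 0.405, against median heights of 0.764 and 0.899 over all peaks. Fewer cells of a type and less accessible DNA per cell cannot be told apart in such mixed tissue.

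Peaks in gene deserts were low. Their median height, the authors' deposited signal for each peak, was 0.320 in replicate 1 and 0.444 in replicate 2, against 0.688 and 0.839 for the other intergenic peaks and 1.95 and 1.81 for promoter peaks. Heights of different libraries are not on a stated common scale, so ranks within an animal's own list are the safer measure. The median desert peak stood above 18.5% and 23.5% of its own list, against 46.5% and 47.5% for the median of the other intergenic peaks. The lowest 10% of each list held 36.0% (5179) and 31.6% (3523) of the desert peaks, against 11.2% and 11% of the other intergenic peaks. Desert peaks in the tallest 10% numbered 298 (2.07%) and 319 (2.86%), against 6.46% and 5.45% of the other intergenic peaks. The middle 50% of desert heights spanned 0.184 to 0.732 and 0.247 to 0.958, and the 95th percentiles were 3.81 and 3.90. Their tallest peaks reached 49.1 and 28.3. Within a library all heights were multiples of 1 step, 0.00542 and 0.00988, to within 0.1 of a step, so that the median desert peak amounted to 59.0 and 45 steps, against 127 and 85 for the other intergenic peaks. Desert peaks had a median width of 160 bp in replicate 1 and 180 bp in replicate 2.

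**Figure D1:**
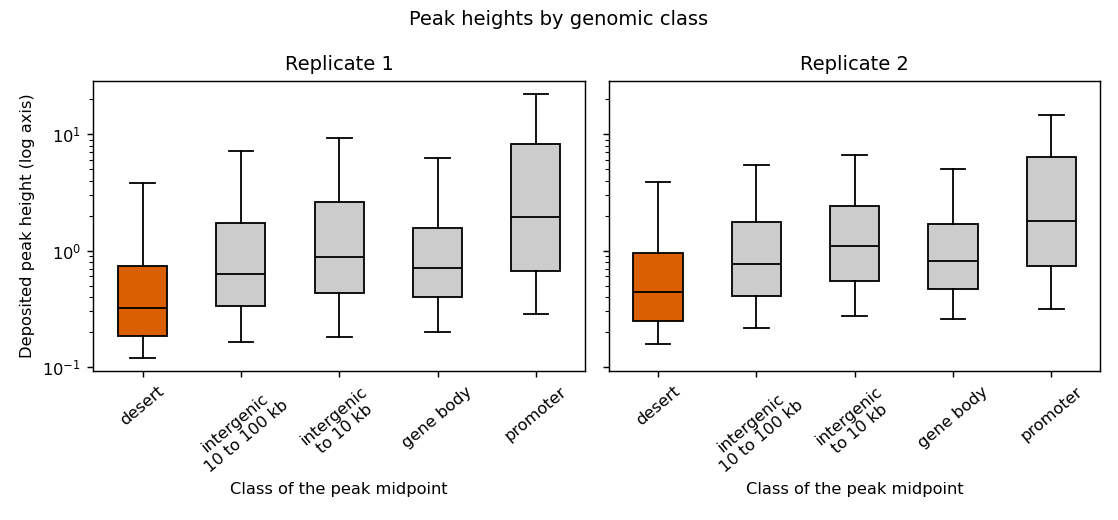
Deposited peak heights (log axis) by the genomic class of the peak midpoint, in 1 panel per animal, with gene desert peaks in orange. Boxes give the median and the middle 50%, and whiskers the 5th and 95th percentiles over peaks. The desert medians of 0.320 and 0.444 are the lowest of the 5 classes in both animals.

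The authors' smaller list, which holds 88282 and 78928 peaks, retained fewer of the desert peaks. It contained 43.7% and 59.1% of the desert peaks of the larger list, against 61.3% and 68.3% of the other intergenic peaks.

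Fewer desert peaks held a footprint, and those that did held fewer. At least 1 footprint had its midpoint in 8798 desert peaks of replicate 1, or 61.2% (60.4 to 62.0%), and in 6311 of replicate 2, or 56.5% (55.6 to 57.4%). The other intergenic peaks reached 79.7% and 74.3%. In all, 19050 and 14842 different footprints lay in desert peaks. The mean per peak, in which a footprint under 2 overlapping peaks counts for both, was 1.33 in each animal, against 1.97 and 1.92 in the other intergenic peaks. One desert peak held as many as 11 footprints in replicate 1 and 12 in replicate 2. Footprints covered 12.1% and 10.2% of the bases of desert peaks, against 18.8% and 15.6% of the other intergenic peaks. The median desert footprint was 10 bp wide in each animal, against 12 and 11 bp for the other intergenic peaks. Those of 20 bp or wider made up 21.0% and 18.1% of desert footprints, against 30.1% and 24.5%.

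The difference in footprints was turned round at matched height. When other intergenic peaks were weighted to the mix of height deciles of the desert peaks, 59.5% and 54.9% of them held a footprint, against the 61.2% and 56.5% of desert peaks. Within deciles the desert share was the higher one in 8 of 10 deciles in both animals. In the lowest decile it was 20.2% and 12.9%, below the 21.9% and 14.1% of the other intergenic peaks. That decile held 36.0% and 31.6% of the desert peaks. In the tallest decile every desert peak held a footprint in both animals, as did 100% and 99.9% of the other intergenic peaks. Footprints per peak at the same mix were 1.25 and 1.26 for the other intergenic peaks, below the 1.33 of desert peaks. Peak width was not matched. In decile 3 the median desert peak was 160 and 180 bp wide, against 146 and 160 bp for the other intergenic peaks. In the tallest decile both classes had medians of 180 and 200 bp. The part of width in these differences was not tested.

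**Figure D2:**
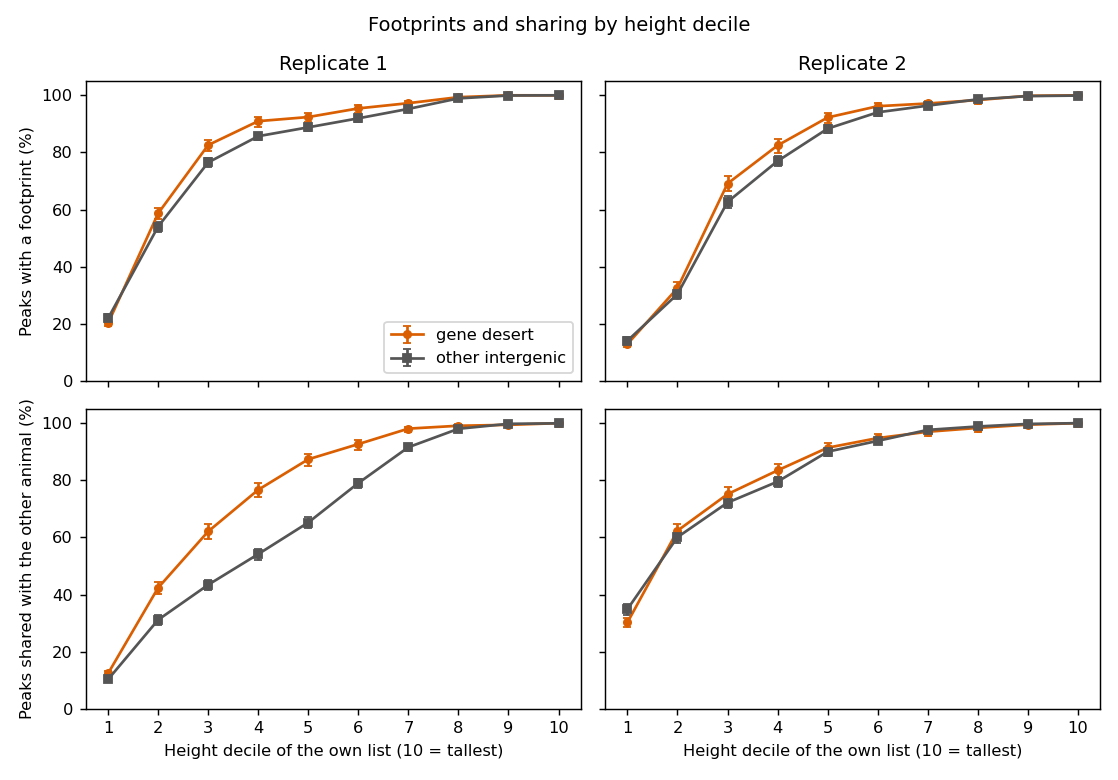
Share of peaks with a footprint (upper row) and share overlapping a peak of the other animal (lower row), in percent, by height decile of the animal's own list, decile 10 being the tallest. Orange circles are gene desert peaks, grey squares other intergenic peaks, and bars are Wilson 95% intervals for counting error. The orange points for sharing stand above the grey ones in 9 of 10 deciles of replicate 1, with 62.1% against 43.4% in decile 3, and in 5 of 10 deciles of replicate 2.

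Sharing between the animals followed height. A peak of the other animal overlapped 7502 desert peaks of replicate 1 by at least 1 bp, or 52.2% (51.4 to 53.0%), and 7478 of replicate 2, or 66.97% (66.1 to 67.8%). For the other intergenic peaks the shares were 65.1% and 81.4%. The share depends on the length of the lists. When the longer list, that of replicate 1, was reduced to its 114404 tallest peaks, the number in replicate 2, 83.9% of the 7179 desert peaks left in replicate 1 were shared and 53.8% of the 11166 of replicate 2. Of the shared desert peaks of replicate 1, 7494 (99.9%) overlapped a desert peak and not one of another class. Median heights were 0.667 and 0.662 for shared desert peaks and 0.190 and 0.237 for unshared ones. In the lowest decile 12.4% and 30.2% of desert peaks were shared, and in the tallest every one was. Across the 7502 shared desert peaks, the heights in the 2 animals had a Pearson correlation of 0.896 on the log2 scale and a Spearman correlation of 0.862, against 0.920 and 0.911 across 17182 shared other intergenic peaks. These peaks share 1 pair of libraries and are no replicates of one another.

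At matched height the animals differed in how desert sharing compared. With the height mix of desert peaks the other intergenic peaks were shared at 43.4% in replicate 1, below the 52.2% of desert peaks, and at 67.4% in replicate 2, beside the 66.97% of desert peaks. Of the unshared desert peaks, 469 (6.82%) in replicate 1 and 273 (7.40%) in replicate 2 lay on a region of the other animal with a false discovery rate no higher than 0.05, against 9.53% and 13.04% of the unshared other intergenic peaks.

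Unshared desert peaks more often lay in sequence that is soft-masked in the reference, which marks repeats. At least 50% of the bases were soft-masked in 2454 desert peaks of replicate 1 (17.1%) and in 749 of replicate 2 (6.71%), against 8.45% and 4.79% of the other intergenic peaks, and 44.5% of all desert bases are soft-masked. Among shared desert peaks the share was 3.83% and 3.76%. Among unshared ones it was 31.5% (2167) and 12.7% (468). Other intergenic peaks differed in the same direction, with 4.04% and 3.87% of shared and 16.7% and 8.81% of unshared ones. Such masked desert peaks were shared at 11.7% and 37.5%. Without them the desert share rose to 60.5% and 69.1%, against 50.02% and 69.0% of the other intergenic peaks at the desert height mix. The part of repeat sequence in the sharing of the animals was not tested beyond this. Desert peaks had a median GC content of 52.4% and 49.5%, against 53.7% and 52.0% for the other intergenic peaks.

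Within the deserts, peaks became sparser, lower and less often shared with distance from the nearest coding start. Distances had medians of 254 and 245 kb and reached 2566 and 2618 kb. From 100 to 200 kb there were 24.8 and 19.98 peaks per Mb, and beyond 1000 kb there were 11.5 and 7.51 per Mb. Median height moved from 0.417 and 0.514 in the nearest class through 0.298 and 0.415 at 300 to 500 kb to 0.173 and 0.286 in the farthest. Shared peaks made up 58.5% and 72.4% of the nearest class (n = 5420 and 4367 peaks) and 32.3% and 49.5% of the farthest (n = 846 and 552 peaks). A footprint was present in 69.2% and 62.0% of the nearest and in 40.1% and 42.6% of the farthest. Peaks with at least 50% soft-masked bases moved the other way, with 10.7% and 4.26% in the nearest class and 39.8% and 14.3% in the farthest, and their part in the trend was not tested. On autosomes alone, where all these trends ran the same way, there were 28.7 and 23.4 peaks per Mb in the nearest class and 11.6 and 7.60 in the farthest.

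**Figure D3:**
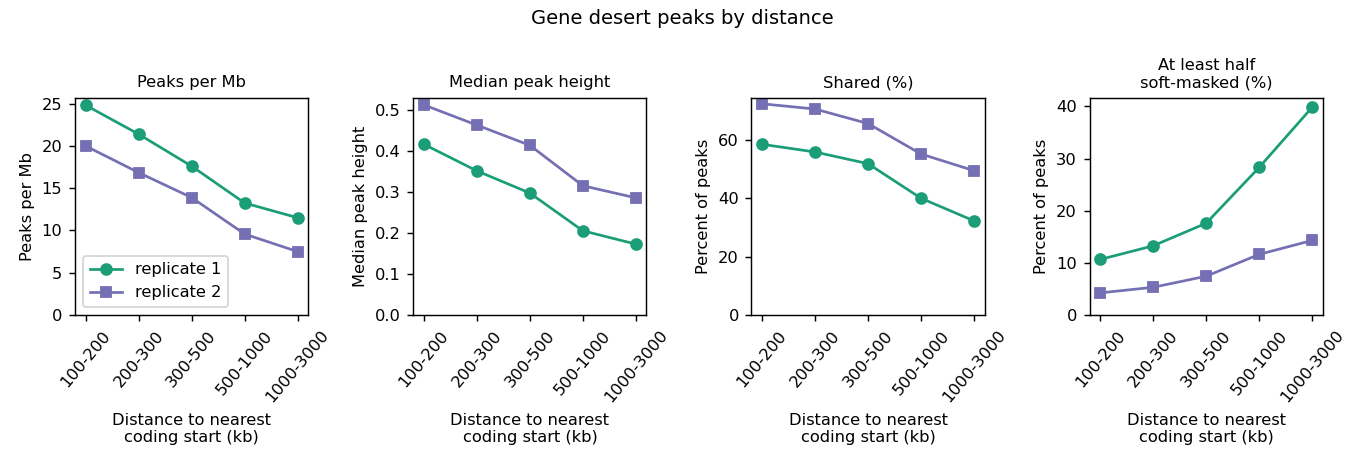
Gene desert peaks in 5 classes of distance to the nearest protein-coding transcript start (kb), for replicate 1 (green circles) and replicate 2 (violet squares). The panels give peaks per Mb of desert sequence, the median deposited height, and the percentage of peaks that were shared or at least 50% soft-masked. Density, height and sharing fall at every step of distance in both animals, and soft-masking rises.

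At the 100 kb limit itself, peaks on both sides had similar values. The 416 and 333 members between 100 and 105 kb had median heights of 0.490 and 0.642, against 0.461 and 0.563 for the 487 and 400 non-members between 95 and 100 kb. Of the same members 62.5% and 77.8% were shared, against 62.4% and 76.5% of these non-members. A footprint was present in 76.7% and 65.2% of these members, against 71.9% and 66.75% of the non-members.

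Few desert peaks lay near the start of a noncoding gene, and the rule itself left out peaks inside noncoding gene bodies. With only coding gene bodies left out there were 17148 and 13438 peaks. Within 1 kb of such a start lay 423 (2.94%) and 316 (2.83%) desert peaks, against 1.28% of all desert bases. Members there lay before the start or, for genes shorter than 1 kb, also past the end of the gene. These peaks had median heights of 0.401 and 0.523, against 0.314 and 0.435 for the desert peaks farther away. Between neighbouring peaks of a desert the median gap was 21.8 and 25.5 kb. Gaps under 10 kb made up 36.9% and 35.2%, and those under 1 kb 15.5% and 15.9%. The spacing of other classes was not measured.

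The tallest desert peaks were alike in both animals. The 100 tallest of each animal were all shared, and 6 of the 100 in each lay within 1 kb of a noncoding start. The best-ranked, with heights of 49.1 and 28.3, ranked 10 and 17 among all peaks of its list. It lay 163 bp from the start of the processed pseudogene Gm21769 and 219 kb from the nearest coding start, that of Gm31371. The next lay between Gli2, a transcription factor of hedgehog signalling, and Inhbb, an inhibin beta subunit, 130 kb from the Inhbb start (chr1:119292281-119292440, heights 34.9 and 18.8). A peak of 28.8 and 18.9 lay 123 kb from Tmem161b (chr13:84348081-84348240).

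Further down the 10 best-ranked, the nearest coding starts were those of Sipa1l2, Rit2, Pgrmc2, Kcnk9, Zfat, Angpt1 and Smim15. The peak near Rit2, a small GTPase of neurons, was the farthest of the 10 from a coding start, at 505 kb, and had heights of 27.6 and 16.7. The peak near Angpt1, a ligand of the endothelial receptor Tek, lay 352 kb away with heights of 25.2 and 15.5. Near Kcnk9, a background potassium channel that granule cells express, the peak whose sequence carries the E-box lay 186 kb away and held 6 and 9 footprints under heights of 24.2 and 16.3. The Smim15 peak, of 26.3 and 14.9, also lay 167 bp from a start of Zswim6, which M21 lists only as a processed transcript without a coding start, so its place in a desert depends on that annotation. The Zfat peak, of 25.5 and 15.7, lay 155 bp from the lincRNA Gm20732.

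Words of factor motifs were counted on both strands in windows of 200 bp centred on each peak and, as background, in the same windows moved by 1000 bp. A match is a description of the sequence and no evidence of binding. The E-box CAGATGG, the form that Neurod1 and Atoh1 prefer, stood in 14.5% and 19.3% of desert windows, against 12.7% and 14.7% of other intergenic windows, 4.15% and 4.25% of promoter windows, and 11.9% and 13.8% of all peaks. At 1000 bp from desert peaks it stood in 3.83% and 4.13%. Its share grew with height, and in the tallest decile 99 of 298 desert windows (33.2%, 28.1 to 38.8%) and 131 of 319 (41.1%, 35.8 to 46.5%) held it, against 15.3% and 21.3% of other intergenic windows of that decile. The desert share was above the other intergenic one in all 10 deciles of both animals. Among the 100 best-ranked shared desert peaks, 38 held the E-box and 27 the ZIC word. Equally ranked peaks of other classes were not counted.

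The CTCF core, spelled CCA, AG and GGC with 2 free bases in each gap, ran the opposite way. It stood in 6.05% and 7.09% of desert windows, against 14.8% and 17.0% of other intergenic windows and 8.73% and 9.49% of all peaks, and in 0.842% and 0.851% of windows at 1000 bp from desert peaks. The desert share was below the other intergenic one in all 10 deciles of both animals. In the tallest decile it was 11.7% and 5.64%, against 25.7% and 16.0%. Of the 100 best-ranked shared desert peaks, 7 held the CTCF core, again without a count for other classes.

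**Figure D4:**
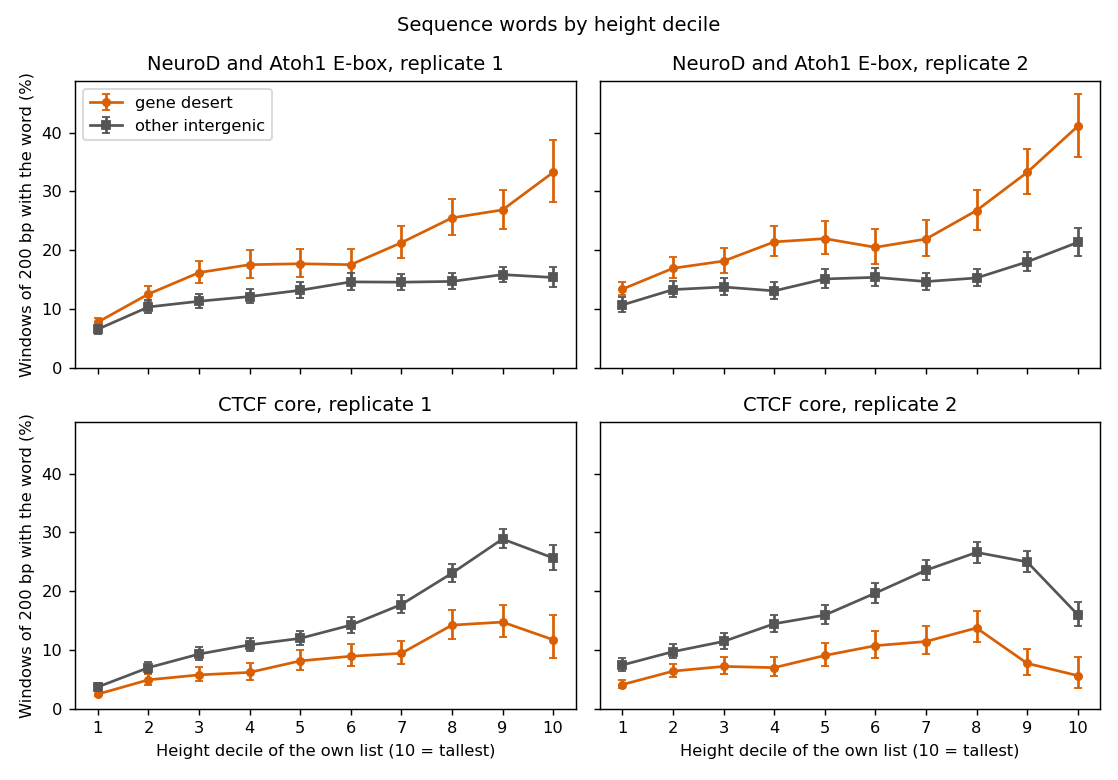
Share of 200 bp windows, in percent, that hold the E-box CAGATGG (upper row) or the CTCF core (lower row), by height decile of the animal's own list, with 1 column per animal. Orange circles are gene desert peaks, grey squares other intergenic peaks, and bars are Wilson 95% intervals for counting error. The E-box points of desert peaks lie above the grey ones in every decile and reach 33.2% and 41.1%, while their CTCF points lie below the grey ones in every decile.

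The ZIC word stood at similar shares in desert and other intergenic peaks, and the NFI word at somewhat higher shares in desert peaks. The ZIC word CCTGCTG stood in 14.2% and 14.7% of desert windows, against 15.1% and 15.3% of other intergenic windows, 14.3% and 14.0% of all peaks, and 3.90% and 3.94% of windows 1000 bp from desert peaks. In the tallest decile it reached 23.2% and 21.6% of desert windows, against 18.2% and 16.3%. The NFI palindrome, TGGC and GCCA parted by 5 free bases, stood in 4.95% and 4.65% of desert windows, against 4.33% and 3.82% of other intergenic windows, 4.06% and 3.57% of all peaks, and 0.306% and 0.340% of windows 1000 bp away. In the tallest decile the palindrome stood in 4.70% and 2.82% of desert windows, against 2.99% and 2.79% of other intergenic ones. Words common at promoters were scarcer in deserts. The SP/KLF word GGGCGGG stood in 2.73% and 1.94% of desert windows, against 5.82% and 4.90% of other intergenic windows, 30.7% and 30.5% of promoter windows, 10.3% and 10.2% of all peaks, and 0.779% and 0.752% of windows 1000 bp from desert peaks. In the tallest decile it stood in 6.04% and 4.08% of desert windows, against 13.8% and 15.2% of other intergenic ones. The ETS word CCGGAAG stood in 1.36% and 0.958% of desert windows, against 1.74% and 1.74% of other intergenic windows, 8.25% and 8.95% of promoter windows, 3.08% and 3.27% of all peaks, and 0.494% and 0.484% of windows 1000 bp away. The CRE, TGAC followed by GTCA, stood in 0.188% and 0.269% of desert windows, against 0.443% and 0.507% of other intergenic windows, 0.664% and 0.782% of all peaks, and 0.104% and 0.0806% of windows 1000 bp away. The homeobox word TAATTA, which can fall inside the MEF2 consensus, stood in 3.61% and 4.97% of desert windows, below the 7.38% and 7.56% found 1000 bp away, and in 2.43% and 3.13% of all peaks. The MEF2 consensus likewise stood in 1.59% and 2.53% of desert windows, against 4.46% and 4.70% at 1000 bp and 1.31% and 1.81% of all peaks. For the AP-1 word TGANTCA the values were 7.11% and 8.46% in desert windows, 6.23% and 6.45% at 1000 bp, and 6.13% and 6.73% in all peaks. Other intergenic windows held the homeobox word at 3.12% and 3.85%, MEF2 at 1.58% and 2.19%, and AP-1 at 7.22% and 7.93%.

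Footprints covered some words far more often than others. Inside desert peaks, 563 of 835 CTCF cores (67.4%) in replicate 1 and 416 of 781 (53.3%) in replicate 2 lay in a footprint. For the NFI palindrome the shares were 55.0% and 34.6%. Shares were also high for 2 of the 14 words with few sites. The CRE was in a footprint at 14 of 23 sites (60.9%) and 12 of 29 sites (41.4%). A word of RFX factors was so at 10 of 14 sites (71.4%) and 6 of 15 sites (40%). E-boxes were in a footprint at 783 of 2005 sites (39.1%) and 819 of 2255 sites (36.3%), and ZIC words at 27.9% and 22.8%. The words that were no commoner in desert peaks than beside them were seldom footprinted, with 3.35% and 3.93% for homeobox and 7.19% and 7.42% for MEF2. AP-1 words were covered at 8.81% and 7.10%.

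Deserts were then taken as whole intervals, each the longest stretch outside coding gene bodies and outside 100 kb of coding starts. There were 1984 of them, with a median of 173 kb of sequence outside noncoding genes and gaps, and 1566 held a peak in either animal. The 418 without one had a median of 29.4 kb. A desert held a median of 3 peaks as the mean of both animals, and 246 deserts held 50% of all desert peaks. The 10 deserts with most peaks held 4.38% of them in 2.94% of the desert sequence.

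The desert with most peaks lay between Auts2, a nuclear regulator of neuronal development, and Castor2, an arginine sensor subunit (chromosome 5, 132641824 to 133999710). It held 70 and 56 peaks, or 54.3 and 43.4 per Mb of its 1.29 Mb outside noncoding genes and gaps. Of these 48 and 47 were shared, and 54 and 43 held a footprint. Its tallest peak, the one whose sequence is given, reached 16.1 and 13.3, and 4 and 6 of its peaks belonged to the tallest 10% of their list. The tallest promoter peak of Auts2 itself was lower, at 1.75 and 1.31, and that of Castor2 was 13.9 and 8.89.

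**Figure D5:**
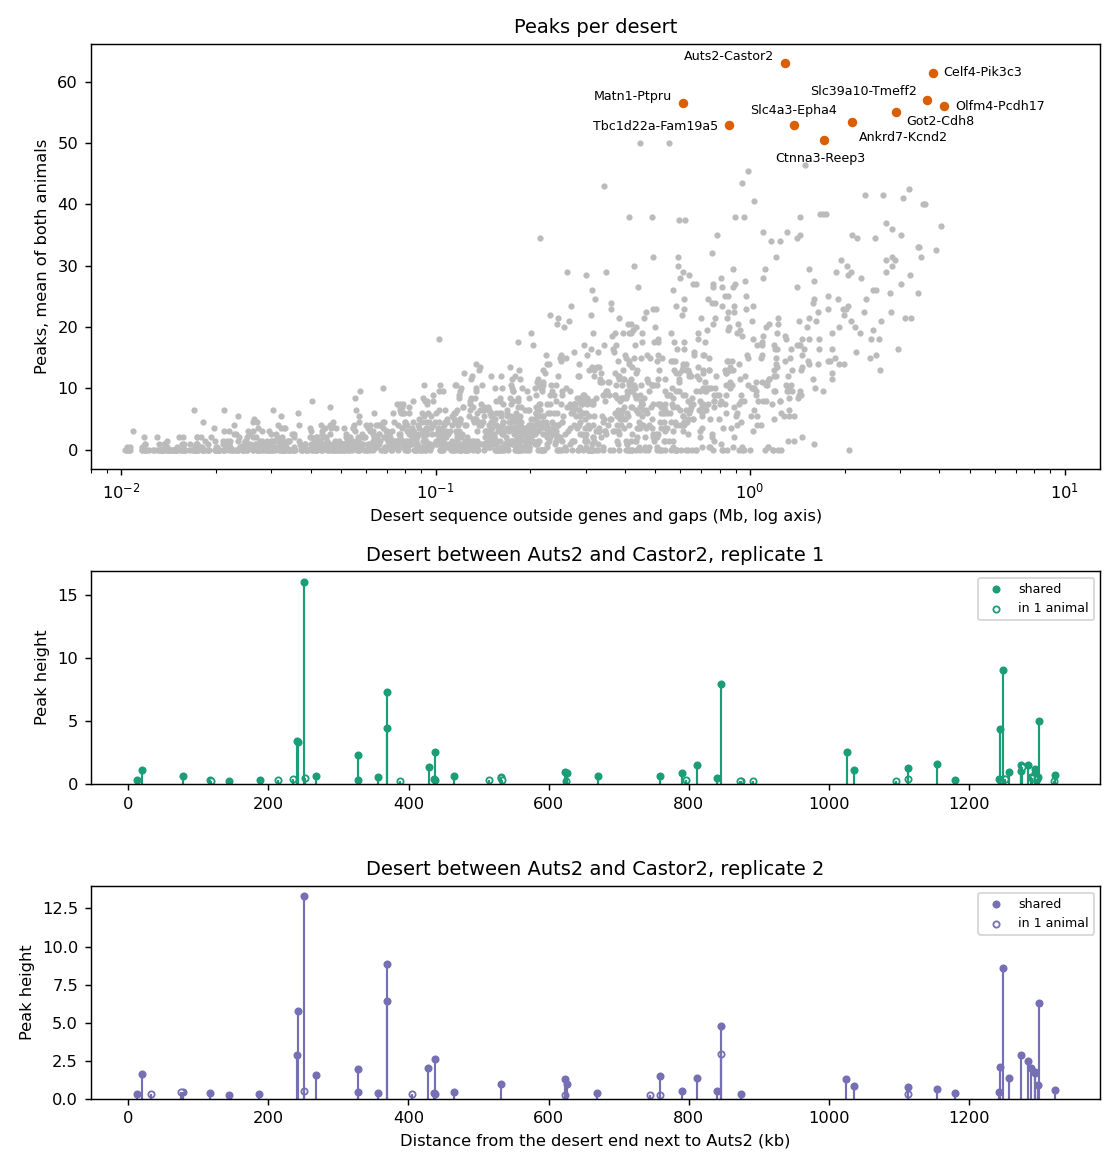
Upper panel: number of peaks per desert (mean of both animals) against its sequence outside genes and gaps in Mb (log axis), with deserts over 0.01 Mb in grey and the 10 with most peaks in orange and named by their flanking genes. Lower panels: height of each peak along the desert between Auts2 and Castor2, by distance in kb from the desert end next to Auts2, with shared peaks filled and unshared ones open. The tallest peak, of 16.1 and 13.3, stands at the same place in both animals, and most open symbols are low.

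Several of the other top deserts bordered adhesion and guidance genes. The desert between Olfm4 and Pcdh17, a protocadherin, held 64 and 48 peaks over 4.24 Mb (chromosome 14, 80100303 to 84343562), with a tallest peak of 11.9 and 8.97. Pcdh17 had a promoter peak of 13.3 and 9.88, while the promoter of Olfm4, a secreted glycoprotein of the gut, had none. The desert between Got2 and Cdh8, a classical cadherin, held 67 and 43 peaks (chromosome 8, 95988548 to 99024470), none taller than 4.30 and 5.45. The desert between Slc4a3, an anion exchanger, and Epha4, an ephrin receptor of axon guidance, held 58 and 48 peaks (chromosome 1, 75649600 to 77277606), and the Epha4 promoter peak of 2.11 and 1.32 was lower than the tallest desert peak of 11.8 and 7.07. Between Ctnna3, an alpha-catenin, and Reep3 lay 49 and 52 peaks, up to 16.5 and 12.5 (chromosome 10, 65003668 to 66934631).

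Channel, receptor and signalling genes bordered others. The desert between Ankrd7 and Kcnd2, a potassium channel gene active in granule cells, held 60 and 47 peaks up to 15.6 and 13.2 (chromosome 6, 18966351 to 21115502). Kcnd2 had a promoter peak of 7.33 and 5.68 and Ankrd7 had none. The desert between Matn1, a cartilage matrix gene, and Ptpru, a receptor tyrosine phosphatase, held 67 and 46 peaks (chromosome 4, 131044386 to 131721515), or 109 and 75.2 per Mb of its 0.612 Mb outside noncoding genes and gaps. Matn1 had no promoter peak, and Ptpru had one of 16.9 and 8.92. Between Tbc1d22a and Fam19a5, which encodes a secreted chemokine-like protein of the brain, 54 and 52 peaks lay in 0.946 Mb (chromosome 15, 86498504 to 87444298), up to 15.5 and 11.04. The desert between Slc39a10, a zinc transporter, and Tmeff2, a transmembrane protein of the brain, held 58 and 56 peaks in 3.82 Mb (chromosome 1, 46992853 to 50809961), up to 11.5 and 10.6, and Tmeff2 had the tallest promoter peak of the 20 flanking genes, at 26.2 and 17.9. The desert between Celf4, a neuronal RNA-binding protein, and Pik3c3, a lipid kinase of autophagy, on chromosome 18 held 68 and 55 peaks, none taller than 5.33 and 4.05. In all, a peak stood at the promoter of 17 of the 20 flanking genes in both animals, the exceptions being Matn1, Olfm4 and Ankrd7. Over all protein-coding genes the share with such a peak in both animals was 62.9%, and no test was made of the difference.

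Counts of peaks followed the length of a desert, and density gave another order. The 471 deserts with at least 500 kb of sequence had a median of 11.5 peaks per Mb as the mean of both animals, with quartiles of 7.31 and 18.5. The densest were that between Matn1 and Ptpru, with 92.3 per Mb, and that between H2al1j and Bcor, a transcriptional corepressor, on the X chromosome, with 52 and 48 peaks and 90.6 per Mb. Next came the deserts between Fut8 and Gm6657 with 63.4, Tbc1d22a and Fam19a5 with 62.0, and Mc2r and Tcf4, a basic helix-loop-helix factor, with 60.4 per Mb. The desert between Maf, a leucine zipper transcription factor, and Dynlrb2 had 51.0 per Mb. The 30 of the 471 without a peak in either animal were all on the Y chromosome, which has 45 of them. All of the other 426 held a peak, and their median was 12.5 per Mb, with quartiles of 8.74 and 20.4. Among deserts of at least 1 Mb off the Y chromosome, the sparsest lay between 5730507C01Rik and Gm21863 on chromosome 12, with 5 and 1 peaks, followed by 3 on the X chromosome, that between Il1rapl1, a synaptic adhesion gene, and Pet2 coming next with 6 and 2 peaks.

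Lists of genes were read for how often their members flank a desert of at least 100 kb and how dense that desert was. Of all 21911 protein-coding genes, 2094 (9.56%) flanked one of the 1252 such deserts, which had a median of 14.6 peaks per Mb. Of 350 developmental transcription factors 98 (28.0%) did, beside deserts with a median of 23.2 per Mb. Examples were Tcf4, next to the desert with 41 and 34 peaks towards Mc2r, and Zeb2, a zinc finger repressor, next to the one with 39 and 31 peaks towards Acvr2a. Of 168 adhesion and axon guidance genes 83 (49.4%) did, with a median of 13.3 per Mb. Of 222 ion channel and neurotransmitter receptor genes 58 (26.1%) did, with 13.1 per Mb. The deserts of adhesion and guidance genes were longer, with a median of 0.971 Mb of sequence, against 0.364 Mb for all such deserts. The medians were 0.404 Mb for transcription factors and 0.341 Mb for channels and receptors. The part of length in these densities was not tested. Kcnd2 and Grik2, a kainate receptor subunit with 39 and 43 peaks in the desert towards Hace1, were among the receptors and channels. Chemosensory receptor genes, which lie in tandem clusters, flanked a desert in 15 of 1475 cases (1.02%), with 10.2 per Mb. Olfr1507 and Olfr1505 flanked the richest of these, with 20 and 13 peaks towards Dad1 and 9 and 9 towards Tle4.

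Genes of the major cerebellar cell types flanked a desert more often than the 9.56% of all coding genes. The shares were 25% for granule cell, 50% for Purkinje cell, 35.7% for astrocyte and 42.9% for interneuron genes. These deserts were few, and their median densities were above the 14.6 peaks per Mb of all such deserts. Of 20 granule cell genes 5 flanked a desert (median 33.5 peaks per Mb, 4 of 5 deserts above 14.6). The desert between Etv1, an ETS factor of maturing granule cells, and Arl4a held 26 and 33 peaks, up to 22.0 and 14.2, and that between Tbc1d2b and Zic1 held 30 and 23. Of 16 Purkinje cell genes 8 flanked one (33.6 per Mb, 5 of 8 deserts above 14.6), among them Skor2, a corepressor of Purkinje cells, with 18 and 14 peaks towards Smad2, and Rora, an orphan nuclear receptor, with 16 and 14 towards Vps13c. Of 14 astrocyte and Bergmann glia genes 5 did (35.3 per Mb, 5 of 6 deserts above 14.6). Nfib had 32 and 22 peaks in the desert towards Mpdz, up to 15.2 and 12.2. It is an NFI factor, of a family that granule neurons also carry, so its desert cannot be assigned to glia. Gja1, the gap junction protein of astrocytes, had 21 and 22 peaks towards Hsf2. Of 14 interneuron genes 6 did (19.4 per Mb, 3 of 6 deserts above 14.6), with 12 and 8 peaks between Tfap2b and Pkhd1 and 14 and 5 between Sorcs3 and Sorcs1.

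The lists of the other cell types of the tissue were short, and their counts stood near the 9.56% of all coding genes. Of 12 oligodendrocyte lineage genes 1 (8.33%) flanked a desert, Pdgfra, with 5 and 1 peaks towards Kit (15.0 per Mb as the mean of both animals). Of 10 endothelial and mural genes 1 did, Kdr, with 5 and 4 peaks, also towards Kit (25.1 per Mb). None of 10 microglia genes did. No test was made of the differences between lists, which rest on few deserts.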

How the data were processed

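DNase-seq was run on cerebellum of 2 mice, 1 library each. Per the deposited file descriptions, all files are on mm10 and were made separately for each animal; an aligner or a caller of peaks or footprints is not given in the sources used here. The authors deposited for each peak a signal, its height, whose scaling is not stated, so heights were compared only within an animal's list, apart from the correlation of shared peaks. Depth is unknown. The authors' false discovery rates, adjusted p-values of the cut rate, are listed only below 0.05. The p-value deposited with a footprint is 0.01 for all of them, so footprints entered through their positions alone.

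Peaks were placed by midpoint against GENCODE M21 and, in order, counted as promoter (within 1000 bp of a coding start), gene body, other intergenic (within 100 kb of a coding start) or gene desert. A footprint belonged to the peak that held its midpoint. Peaks were shared at an overlap of at least 1 bp. Desert ends, densities and word windows used ungapped GRCm38.p6 sequence, with soft-masking as in that reference. Shares carry Wilson 95% intervals. Height deciles were those of an animal's whole list, and height-matched shares weight the other intergenic deciles by desert peak numbers.

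Genes named are those flanking the 10 deserts with most peaks, those nearest the 10 best-ranked shared peaks, and, per list, the 2 whose desert has most peaks; the densest and sparsest deserts were named after their values were seen. The members, the 11 gene lists and the 14 words were chosen with earlier results of these data known. Steps were tested on simulated data. Python 3.11.15, numpy 2.4.6, pandas 2.3.3 and scipy 1.17.1 were used.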

Additional observations from a re-analysis of the deposited data

How the results depend on the processing

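Values here are means of both animals unless given per animal. The number of desert peaks, 12770.5 in the main analysis, fell to 7877 with a distance of over 200 kb and to 6495.5 with the authors' smaller list (6328 and 6663). The share of all peaks in deserts, 10.01%, was 14.6% over 50 kb, 6.17% over 200 kb, 11.99% with only coding gene bodies left out, 7.80% with the smaller list, 8.02% with replicate 1 reduced to as many tallest peaks as replicate 2 (6.28% and 9.76%) and 9.27% without peaks at least 50% soft-masked. The median height, 0.382, was 0.810 with the smaller list and 0.588 with that reduction (0.732 and 0.444). The share with a footprint, 58.9%, was 62.5% over 50 kb, 54.7% over 200 kb, 84.8% with the smaller list, 74.3% with that reduction (92.2% and 56.5%) and 63.5% without masked peaks. The share of shared peaks, 59.6%, was 76.1% with the smaller list; it was 52.4% at an overlap of at least 50% of both peaks and 62.4% against regions of the other animal at a false discovery rate of 0.05. Of the 10 deserts with most peaks, 3 stayed among the top 10 when ranked by peaks per Mb, and 9 with the smaller list.

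Leaving out either animal gave 11166 to 14375 peaks, 9.76 to 10.3% of all peaks, median heights of 0.320 to 0.444, footprint shares of 56.5 to 61.2%, sharing of 52.2 to 66.97% and 8 to 9 of the same 10 deserts. Restriction to autosomes, also used by distance and chosen after the data were seen, gave median heights of 0.325 and 0.444 and mean sharing of 60.2%. At matched height, the desert share with a footprint was above the other intergenic one also without masked peaks (67.9% and 59.0%, against 65.6% and 57.1%) and on autosomes (62.2% and 57.1%, against 60.5% and 55.3%). No paired analysis was possible because both animals belong to 1 group. Since depth is unknown, a desert peak missing from a list is not shown to be closed in that animal.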
